A study of Mus musculus with 2 samples.

Results

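The interleukin 1 axis and the inflammasome are covered here by 8 genes, Il1a, Il1b, Il1rn, Il1r2, Nlrp3, Casp1, Il18 and Il18bp. They are listed members, taken by name and not by their values, and all 8 of them were found among the 55357 genes of both matrices. The matrices hold CD45+ cells (cells carrying the pan-leukocyte surface protein) sorted from subcutaneous MC38 tumours. MC38 is a mouse colon adenocarcinoma line. It was grown in C57BL/6 mice of 2 groups. One is labelled UEIS LSL, the other UEIS KI, without an explanation of LSL or KI and without an age. By the title of the series, UEIS is a micropeptide acting against anti-tumour immunity. Both tumours were digested with DNase I and collagenase II for 30 min at 37 °C and passed through a 70 µm strainer, and each suspension gave 1 droplet-based 3' single-cell library. Whether a library pools several mice is not stated.

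Interleukin 1 beta and interleukin 18 are made as inactive precursors. A sensor such as NLRP3 assembles the inflammasome, in which caspase 1 cleaves both precursors and the pore protein gasdermin D, through which the mature cytokines leave the cell. Interleukin 1 alpha needs no such cleavage to act. 3 proteins hold these cytokines back: the antagonist Il1rn occupies the interleukin 1 receptor without signalling, Il1r2 is a decoy receptor that binds interleukin 1 and passes on no signal, and Il18bp is a secreted protein that captures interleukin 18. RNA is measured here, so neither cleavage nor secretion is seen.

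Il1b and Il1a are neighbours on the minus strand of chromosome 2 (GRCm38, GENCODE vM21), at chr2:129364570-129371139 and chr2:129299610-129309972, and Il1rn lies farther off on the plus strand at chr2:24336853-24351494. Their promoters are shown because both agonists, which differ widely in level below, carry the same TATA box at nearly the same place, while the antagonist does not. The sequences are from RefSeq (GRCm38.p6), 250 bases before to 50 after a start, and capitals mark TATAAA, which begins 31 bases before the start in Il1b and 32 in Il1a.

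Il1b promoter, chr2:129371090-129371389, minus strand: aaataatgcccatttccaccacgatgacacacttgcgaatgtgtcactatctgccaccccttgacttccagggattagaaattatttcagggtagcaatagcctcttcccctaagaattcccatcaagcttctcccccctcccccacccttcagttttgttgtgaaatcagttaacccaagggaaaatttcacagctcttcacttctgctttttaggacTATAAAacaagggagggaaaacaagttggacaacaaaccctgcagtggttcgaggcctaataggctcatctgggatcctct
Il1a promoter, chr2:129309923-129310222, minus strand: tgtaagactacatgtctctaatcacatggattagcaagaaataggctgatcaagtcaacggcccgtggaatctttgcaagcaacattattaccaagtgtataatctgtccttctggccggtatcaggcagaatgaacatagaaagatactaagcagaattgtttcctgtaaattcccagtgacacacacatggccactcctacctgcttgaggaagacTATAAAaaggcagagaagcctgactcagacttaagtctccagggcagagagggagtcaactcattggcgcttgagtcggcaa
Il1rn promoter of the first of 3 annotated starts, chr2:24336610-24336909, plus strand: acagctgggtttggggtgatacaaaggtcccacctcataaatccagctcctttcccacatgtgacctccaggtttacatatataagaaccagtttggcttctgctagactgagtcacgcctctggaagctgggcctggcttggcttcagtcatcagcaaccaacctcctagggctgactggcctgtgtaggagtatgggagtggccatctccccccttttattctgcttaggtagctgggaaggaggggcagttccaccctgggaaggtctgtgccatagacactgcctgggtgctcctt

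Entries for all 8 genes were found, 11 promoters in all. On the sense strand, TATAAA occurs in 8.32% of the 32851 mouse promoters of the table, and among the 11 it was found in these 2. On both strands, the NF-kB consensus (8.46% of promoters) was found in the second of the Nlrp3 promoters, the interferon-gamma activated site TTCNNNGAA (8.30%) in the Il1r2 promoter, 111 bases before its start, and the interferon-stimulated response element (3.44%) in none of the 11. These are matches of letters, and 3' tags do not show which start was used.

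After quality limits and removal of likely doublets, 8647 cells of UEIS LSL and 8685 of UEIS KI remained, with median depths of 7903 and 8642 UMIs (unique molecular identifiers, each counting 1 captured RNA). 34 cell barcodes occur in both libraries. Every cell was assigned to a gate from its own marker genes, and no member is a marker. The gates held 6045 and 6651 macrophages, 484 and 426 monocytes, 294 and 184 type 2 conventional dendritic cells (cDC2), 25 and 91 neutrophils, 68 and 39 mature dendritic cells, 153 and 132 T cells, and fewer cells of other kinds. The neutrophils were shallow, with median depths of 1180 and 1667 UMIs. Levels are a gene's UMIs scaled to a gate total of 1000000 (CPM) with exact Poisson 95% intervals, which cover counting error only. The macrophage and monocyte gates were not cleanly split. When all cells were clustered, 398 and 438 cells of the macrophage gate fell in cluster 2, named monocyte by its markers. In the monocyte gate the 12 macrophage markers summed to 5439 and 4800 CPM and the 8 monocyte markers to 3369 and 3852. How this split bears on rankings of the 2 gates was not tested. With 1 library in each group no difference could be tested, and library and group cannot be told apart. No gene named UEIS is in the matrices, so the labels could not be checked on it.

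**Figure D1:**
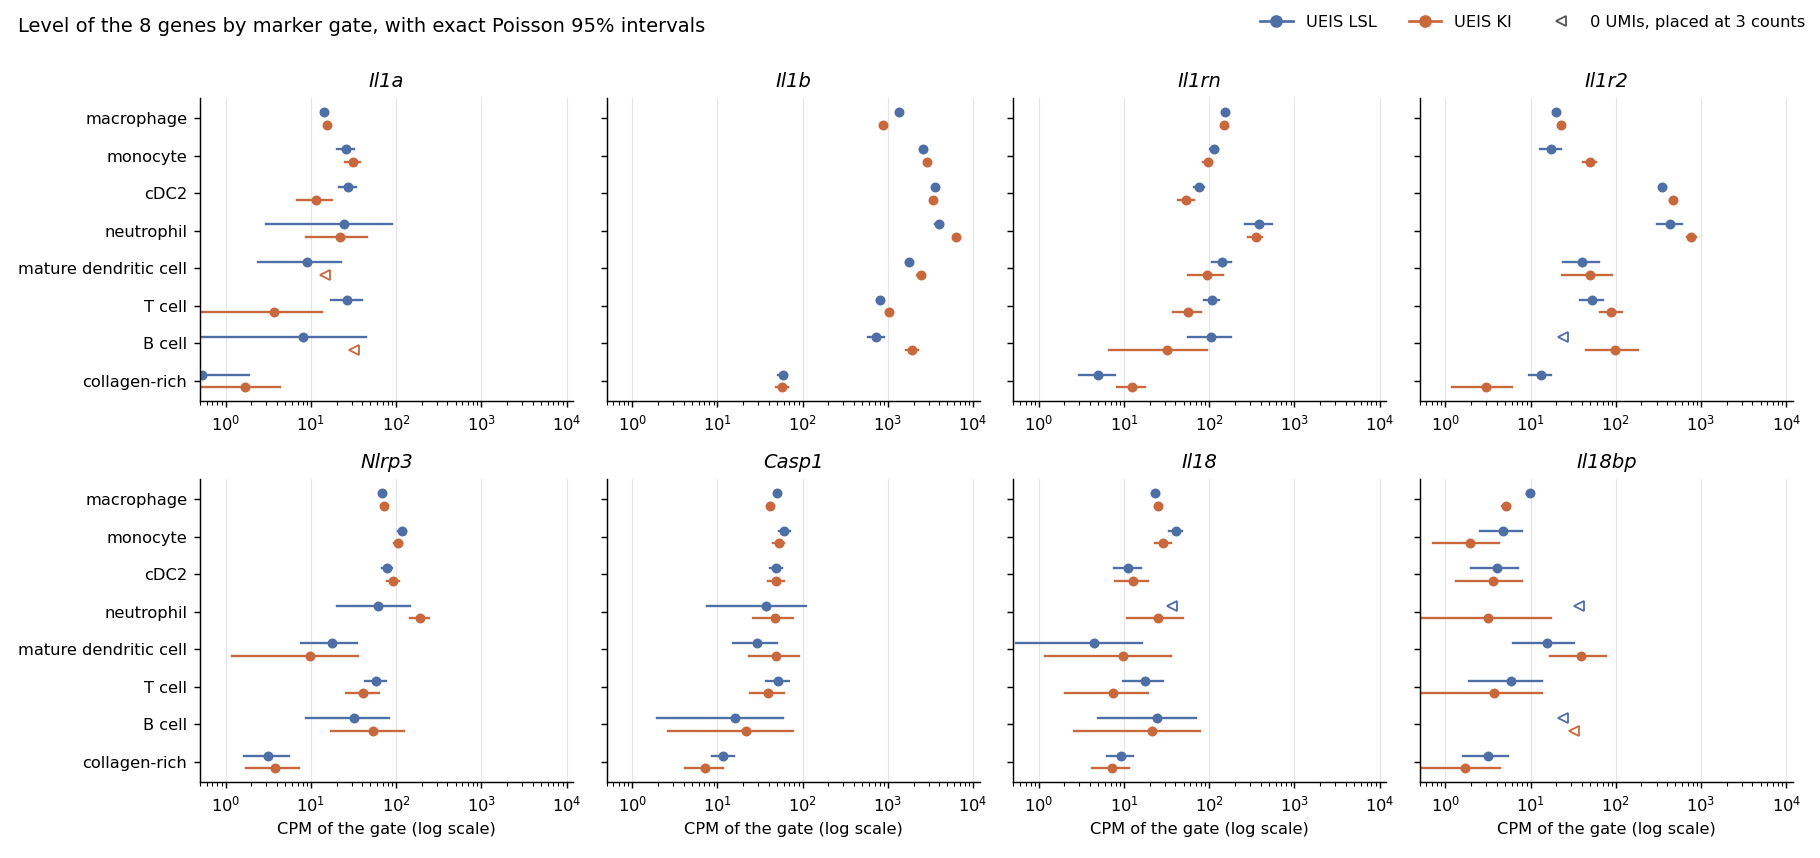
Level of each of the 8 genes (CPM of the gate, log scale) in 8 marker gates, in blue for UEIS LSL and orange for UEIS KI. Points are summed levels, lines exact Poisson 95% intervals, and open triangles mark gates with 0 UMIs, placed at 3 counts. Il1b stands highest in neutrophils, cDC2 and monocytes, Il1r2 in neutrophils and cDC2, and Il1rn in neutrophils, followed by macrophages.

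Among the ligands, Il1b was by far the most abundant. Its level was 3963 CPM (3541 to 4421) in neutrophils of UEIS LSL and 6314 (6041 to 6597) in those of UEIS KI, 3594 and 3391 in cDC2, 2565 and 2859 in monocytes, 1766 and 2429 in mature dendritic cells, and 1335 and 872 in macrophages. In UEIS LSL the intervals of neutrophils and cDC2 overlapped, and the other neighbours in the order of these 5 gates stood apart in both libraries. The few type 1 conventional dendritic cells (cDC1, 14 and 7 cells) had 1209 and 614 CPM. Macrophages still held most of the Il1b RNA, 66.2% and 68.9% of each library's UMIs, because they were most of the cells. Within the macrophages, the 10% of cells with most Il1b held 46.5% and 54.1% of it.

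Thinned to 1000 UMIs a cell, Il1b was detected in 45.2% of macrophages of UEIS LSL (95% exact binomial interval 43.9 to 46.4) and 33.0% of those of UEIS KI (31.9 to 34.2). Without thinning the shares were 71.0% and 59.8%. The thinned shares were 66.5% and 72.7% in monocytes, 79.9% and 78.8% in cDC2, and 83.3% and 90.9% in neutrophils, of which 18 and 77 were deep enough. T cells, which are not known as a source of Il1b, showed 25.0% and 19.5%, at unthinned median depths of 3631 and 2238 UMIs against 8257 and 9457 in macrophages. Their summed level of 808 and 1021 CPM sat in few cells, with 66.2% and 85.7% of the UMIs in the top 10% of cells. All 12 macrophage markers had UMIs in the T cell gate, at 3963 and 2720 CPM in sum. In the 48 and 28 T cells with at most 2 UMIs of each of the macrophage, monocyte and cDC2 marker sets, a limit chosen after the data were seen, Il1b was at 56.2 CPM (18.2 to 131) and 88.3 (24.1 to 226). The collagen-rich gate, of cells high in collagen genes, had 58.0 (50.6 to 66.2) and 57.6 (48.3 to 68.1). At the ratio of the whole library, the C1q RNA in the T cell gate would bring 103 and 77.2 CPM of Il1b with it. The level over the whole T cell gate was 7.85 and 13.2 times as high as that. The gate admitted only cells under 20 C1q UMIs per 10000, which limited the expected value in advance. C1q also misses RNA from cells low in it, such as monocytes, with medians of 3.02 and 4.43 per 10000. These multiples therefore cannot decide how much Il1b was carried in. What brought Il1b into the other T cells was not tested. Members in T, B and NK cells are compared no further, apart from T cell ratios of Il1b and Il1r2 among the flagged results.

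Il1a, the other interleukin 1 agonist, was a minor transcript throughout. It stood at 14.4 CPM (13.4 to 15.4) and 15.6 (14.7 to 16.5) in macrophages and 25.5 and 30.8 in monocytes. Tags at the 3' end need no scaling to gene length, so UMIs of members were set against each other. Whether genes are captured equally well was not tested, so these are ratios of UMIs and not of RNA molecules. For each Il1a UMI, macrophages of UEIS LSL held 92.8 Il1b UMIs and those of UEIS KI 56.0. In cDC2 the Il1a level was 27.2 CPM in UEIS LSL, from 75 UMIs, and 11.4 in UEIS KI, from 19.

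Among the 8 gates shown, Il18 was highest in monocytes. It was at 22.8 CPM (21.6 to 24.1) and 24.9 (23.7 to 26.0) in macrophages, 40.3 (33.4 to 48.2) and 28.9 (23.2 to 35.6) in monocytes, 11.2 and 12.6 in cDC2, and 4.45 and 9.85 in mature dendritic cells. The intervals of monocytes and macrophages were apart in UEIS LSL and overlapped in UEIS KI. Neutrophils had 0 and 8 Il18 UMIs, and the 0 has an exact Poisson upper limit of 45.5 CPM.

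Of the inhibitors, Il1rn was highest in neutrophils, followed by macrophages. It stood at 383 (260 to 543) and 349 CPM (287 to 420) in neutrophils, 151.5 (148 to 155) and 150.3 (147 to 153) in macrophages, 140.1 (108 to 179) and 93.6 (56.4 to 146) in mature dendritic cells, 114 and 96.1 in monocytes, and 75.7 and 54.0 in cDC2. Macrophages held 80.6% and 88.0% of all Il1rn UMIs. Il1r2 had a different distribution, with 432 (301 to 601) and 770.1 CPM (677 to 873) in neutrophils, 347 (325 to 370) and 468 (435 to 502) in cDC2, and only 20.04 and 22.7 in macrophages. The cDC2 gate alone, with 294 and 184 cells, held 31.1% and 21.1% of all Il1r2 UMIs. Thinned to 1000 UMIs, Il1r2 was detected in 27.2% and 34.8% of cDC2 and in 1.61% and 1.83% of macrophages.

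Il18bp was sparse. Macrophages of UEIS LSL had 9.90 CPM (9.09 to 10.8), and those of UEIS KI 5.11 (4.60 to 5.67). The point estimates in mature dendritic cells were higher, at 15.6 and 39.4 CPM, from 7 and 8 UMIs. In UEIS LSL this interval, 6.26 to 32.1, overlapped that of macrophages. In UEIS KI it did not, at 17.0 to 77.7.

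Among the 8 gates shown, the highest point estimates of Nlrp3 and Casp1 lay outside the macrophages. Nlrp3, the sensor, stood at 118 (106 to 131) and 105 CPM (94.1 to 118) in monocytes, 77.5 and 91.2 in cDC2, 68.6 and 72.2 in macrophages, and 61.7 (20.04 to 144) and 192 (147 to 246) in neutrophils, where UEIS LSL gave only 5 UMIs. Mature dendritic cells were low in it, at 17.8 (7.68 to 35.1) and 9.85 (1.19 to 35.6), from 8 and 2 UMIs. Casp1, the protease, was at 60.8 and 52.2 CPM in monocytes, 50.2 and 40.9 in macrophages and 48.9 and 49.2 in cDC2. Monocytes were thus first in both libraries for Casp1, with an interval that overlapped that of the next gate.

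All kept cells were divided into 22 clusters from genes that did not include the members or the pathway list. The 15 clusters with at least 30 cells of the macrophage gate in each library were used here, and only their cells of that gate. Il1b differed far more between clusters than between libraries. Over both libraries it ranged from 42.3 CPM in cluster 15, led by the osteoclast genes Ctsk and Acp5, to 3328 in cluster 2, led by the monocyte genes Plac8 and Ly6c2. Cluster 2, named monocyte by its markers, had 3412 and 3252 CPM, UEIS LSL first. Cluster 3, led by MHC class II genes, had 2426 and 2024, and cluster 0, led by Chil3, had 2548 and 1932. Cluster 1, led by Ch25h and Ccl12, had 316 and 314, and cluster 6, led by the resident-macrophage gene Lyve1, had 314 and 245.

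**Figure D2:**
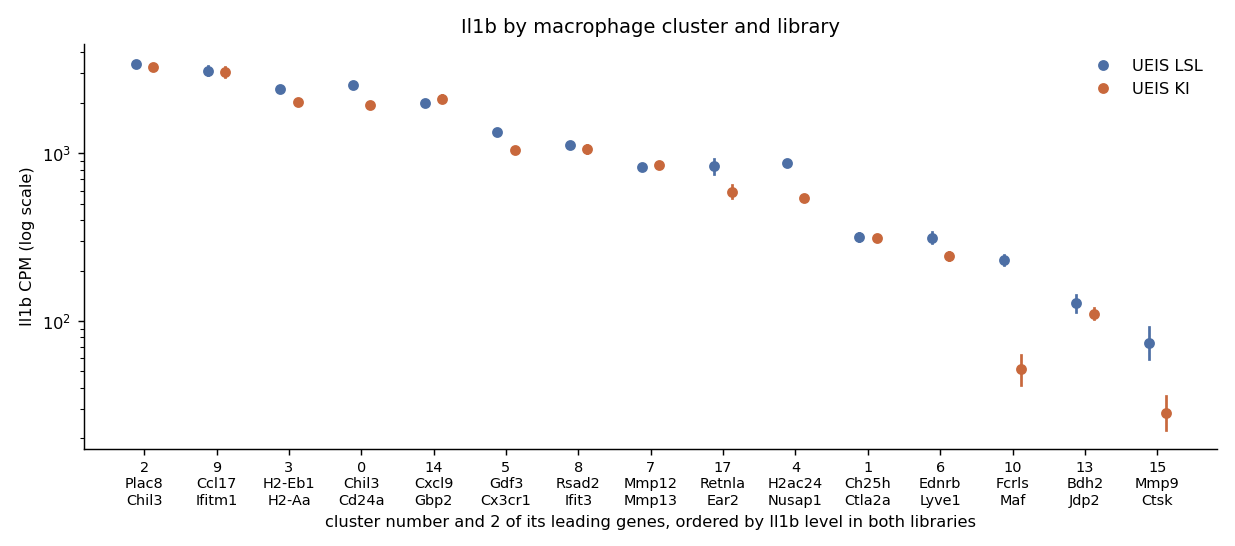
Il1b level (CPM, log scale) in the 15 macrophage clusters, ordered by their level in both libraries, in blue for UEIS LSL and orange for UEIS KI. Points are summed levels and lines exact Poisson 95% intervals. The clusters span 42.3 to 3328 CPM over both libraries, and both libraries follow the same order from high to low with few exchanges.

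The other members peaked in other clusters. Il1rn (355 CPM) and Il1a (52.5) were highest in cluster 7, led by Mmp12 and Mmp13. Il1r2 was highest in the small cluster 9 (408), led by Ccl17 and Ifitm1, and Nlrp3 in cluster 0 (121). Cluster 9 was named cDC2 by its markers, and whether its 37 and 35 cells in this gate are macrophages was not tested. Casp1 (86.0) and Il18bp (37.3) were highest in cluster 14, led by the interferon-gamma targets Cxcl9 and Gbp2. Il18 was highest in cluster 8 (41.1), led by the interferon-stimulated genes Rsad2 and Ifit3.

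The genes whose pattern was most like that of Il1b over the 30 points (15 clusters in each library) were Pim1 (Pearson r = 0.95), Clec7a (0.94), Nfe2l2 (0.94), Ccrl2 (0.92) and Cytip (0.92), of 2901 genes compared on log2(CPM + 10). For Il1rn they were Basp1 (0.92), Rnh1 (0.89) and Srgn (0.87). For Il18 they were Lgals9 (0.88), Pdlim4 (0.87) and Slc7a8 (0.86), and for Casp1 Ifi203 (0.78), Tapbp (0.76) and Idnk (0.74). Among the members, Il1b lay closest to Nlrp3 (0.89), then Il1r2 (0.70) and Il1rn (0.60), and was less like Casp1 (0.35), Il18 (0.24) and Il18bp (0.22). Casp1 lay closest to Il18bp (0.71). The points share libraries and clusters, so these are descriptions.

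Il1b was set against its inhibitors next. Macrophages of UEIS LSL had 8.81 Il1b UMIs for each Il1rn UMI (95% interval 8.61 to 9.01) and those of UEIS KI 5.80 (5.69 to 5.93). The ratio was higher in monocytes, at 22.6 and 29.7, and in cDC2, at 47.5 and 62.8. In neutrophils it was 10.4 (7.15 to 15.5) and 18.1 (14.9 to 22.1). The neutrophil interval overlapped that of macrophages in UEIS LSL and lay above it in UEIS KI. The log2 change from UEIS LSL to UEIS KI was -0.60 in macrophages (-0.65 to -0.56) against 0.40 in monocytes (0.17 to 0.63), 0.40 in cDC2 (0.04 to 0.76) and 0.81 in neutrophils (0.21 to 1.40). The neutrophil value rests on 31 and 111 Il1rn UMIs, and the 10 neutrophil markers summed to 25813 and 54809 CPM in that gate. Their part in it was not tested. With every macrophage cluster given the same weight in both libraries the macrophage change was -0.25. In monocytes of a stricter gate it was 0.12 (-0.14 to 0.39), and in cDC2 named by cluster in place of the gate -0.06 (-0.32 to 0.19).

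Against the decoy receptor the gates ranked differently. Il1b UMIs per Il1r2 UMI were 66.6 and 38.4 in macrophages, 147 and 58.1 in monocytes, 10.4 and 7.25 in cDC2, and 9.17 and 8.20 in neutrophils. Among the gates given here, neutrophils and cDC2 thus carried the most decoy RNA relative to Il1b. The collagen-rich gate, low in both genes, had 4.44 (3.25 to 6.16) and 19.4 (9.18 to 49.2), from 50 and 7 Il1r2 UMIs. The log2 change in macrophages was -0.80 (-0.91 to -0.69), that in monocytes -1.34 (-1.80 to -0.88), that in cDC2 -0.51 (-0.66 to -0.37) and that in neutrophils -0.16 (-0.70 to 0.38). The interval lay below 0 in the first 3 gates and included 0 in neutrophils.

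**Figure D3:**
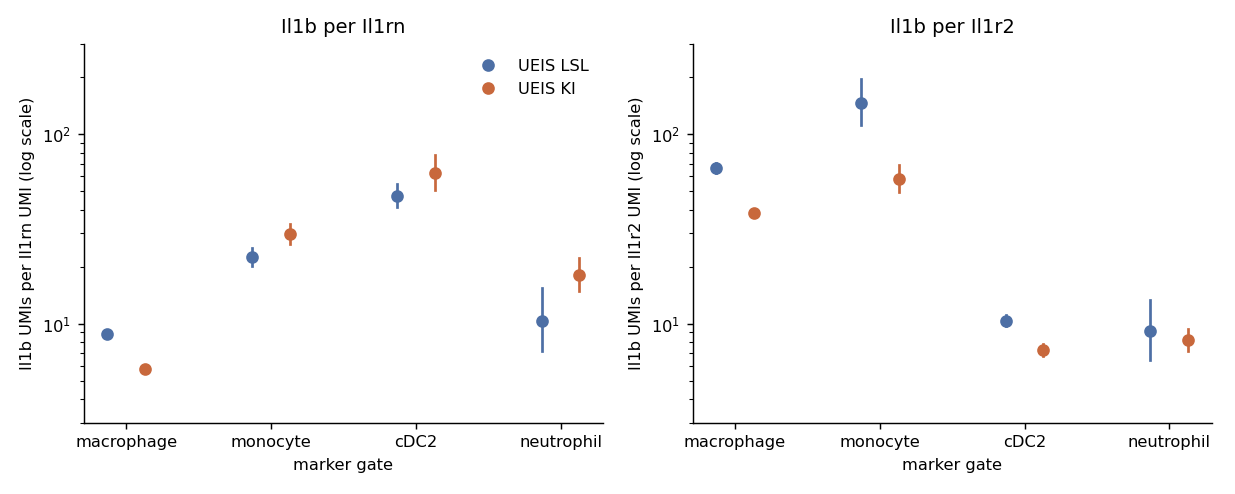
Il1b UMIs for each UMI of the antagonist Il1rn (left) and the decoy receptor Il1r2 (right) in 4 gates, log scale, in blue for UEIS LSL and orange for UEIS KI, with exact 95% counting intervals. In macrophages both ratios are lower in UEIS KI (8.81 and 5.80 on the left, 66.6 and 38.4 on the right). In monocytes they are 22.6 and 29.7 on the left and 147 and 58.1 on the right.

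For the other cytokine pair, macrophages of UEIS LSL had 2.31 Il18 UMIs for each Il18bp UMI (2.09 to 2.55) and those of UEIS KI 4.86 (4.34 to 5.46), a log2 change of 1.07 (0.86 to 1.29). The levels of Il18 itself differed by 0.12 on the log2 scale and those of Il18bp by -0.95. The monocyte interval, -0.66 to 2.21, included 0.

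Within single macrophages thinned to 1000 UMIs, the antagonist was found about as often with Il1b as without it. In UEIS LSL Il1rn was detected in 12.96% (11.7 to 14.3) of cells with Il1b and 10.6% (9.59 to 11.7) of cells without, intervals that just overlap, and in UEIS KI in 11.5% of both. Thinned to 3000 UMIs, the shares were 25.7% against 23.7% and 26.9% against 25.3%. In UEIS LSL Il1r2 was concentrated in cells with Il1b, at 2.61% against 0.789%, and in UEIS KI 4.03% against 0.746%. Nlrp3 was detected in 8.58% against 5.25% and in 10.99% against 5.72%. Casp1 differed less, at 5.27% against 5.01% and 4.35% against 3.91%.

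UEIS KI was then compared with UEIS LSL within gates. A gene was measured with at least 50 UMIs over both libraries in the gate and was called higher or lower when it differed by at least 1.5-fold and its counting interval did not reach 1. In macrophages all 8 members were measured and 2 were called lower in UEIS KI, Il1b and Il18bp, and 0 higher. Of all 13539 genes measured there, 5.38% were called lower and 4.74% higher. Il1b went from 1335 to 872 CPM, 1.53-fold lower (counting interval 1.51 to 1.55), and Il18bp from 9.90 to 5.11 CPM, 1.94-fold lower (1.69 to 2.22).

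The Il1b value is close to the limit and changes with the mix of macrophage clusters. Cluster 3 held 1017 cells of the gate from UEIS LSL but 242 from UEIS KI, while clusters 1, 6 and 0 held 406, 340 and 463 from the first library but 1064, 911 and 1164 from the second. With the same mix of clusters in both libraries Il1b was 1.19-fold lower, at 1328 and 1114 CPM, and Il18bp 1.47-fold lower, so neither was called. Counting every cell alike gave a log2 ratio of -0.50 for Il1b and thinning to 1000 UMIs -0.49, both short of the limit. A further setting kept only the 5539 and 6142 cells of clusters named macrophage. It was thus without clusters 2 and 9, named monocyte and cDC2, and without the few cells outside the 15 clusters. There Il1b was at 1251 and 773 CPM, 1.62-fold lower. This setting was added after the data were seen. Within the 15 clusters the interval of the Il1b log2 ratio lay below 0 in 9, above 0 in 1 and across 0 in 5. The lowest was cluster 10, led by Fcrls and Maf, with 232 and 51.4 CPM (log2 -2.17). Dividing cells of cluster 4 had 878 and 539 (-0.70). With 1 library in each group, a cluster held mostly by 1 library may mark that library.

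Other features of the macrophage gate differed between the libraries too. The 10 neutrophil markers, all with UMIs in both libraries, summed to 129.8 CPM in the first library but 289 in the second. If all of that RNA came from neutrophils, it would bring 19.9 and 33.3 CPM of Il1b at the neutrophil ratio. Mmp9, 1 of the 10 markers, was also a leading gene of macrophage cluster 15, with 65 and 154 cells. How much of the marker RNA macrophages made was not tested. The 6 cDC2 markers summed to 181 and 114 CPM and the 8 monocyte markers to 1024 and 1193. Of 17 genes of the response to tissue dissociation, all measured, 0 were called higher and 2 lower, Hspa1a and Hspa1b, with a median log2 ratio of -0.22 beside 0.03 over all genes. The 7 collagen-gate markers summed to 85.8 and 38.5. The part of these features in the Il1b value was not tested.

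The other 6 members differed little in macrophages. The log2 ratios were 0.12 (-0.02 to 0.25) for Il1a, -0.01 (-0.05 to 0.03) for Il1rn, 0.18 (0.07 to 0.29) for Il1r2, 0.07 (0.01 to 0.13) for Nlrp3, -0.30 (-0.37 to -0.22) for Casp1 and 0.12 (0.02 to 0.23) for Il18. Within clusters, Il1rn was called in 0 of 15 and Il1a in 0 of 8. Nlrp3 was called higher in cluster 17 (42.1 and 110.4 CPM) and lower in cluster 13 (21.9 and 14.5), of 14 where it was measured. Casp1 was called lower in 1 of 13, cluster 7 (42.9 and 23.9). Il1r2 was called higher in 2 of the 8 clusters where it was measured. These were cluster 3 (27.1 and 64.6 CPM) and cluster 9, named cDC2 by its markers (302 and 542). Il18 was called higher in 2 of 12, cluster 0 (13.1 and 20.6 CPM) and cluster 8 (33.4 and 63.3). Il18bp was called lower in 3 of 7. The share of all genes called within single clusters was not worked out, so these counts have no background to be read against.

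In monocytes 7 members were measured and 1 was called, Il1r2, which was higher in UEIS KI, against 6.67% of the 7746 genes measured, with 4.78% called lower. It went from 17.5 CPM (13.04 to 22.9, 52 UMIs) to 49.2 (41.7 to 57.8, 150 UMIs), 2.82-fold (2.04 to 3.94), and the thinned share of cells with it was 2.27% (1.14 to 4.03) and 5.18% (3.27 to 7.73). The 10 neutrophil markers, all detected, moved with it, from 171 to 363 CPM in the monocyte gate. If all of that RNA came from neutrophils, it would bring 2.86 and 5.10 CPM of Il1r2 at the neutrophil ratio. Its source was not tested. The 7 collagen-gate markers summed to 288 and 25.6 CPM in the monocyte gate, and their part was not tested. The Il1b log2 ratio was 0.16 (0.11 to 0.20) and that of Il18 -0.48 (-0.89 to -0.07). Il1b was at -0.04 when the cells were named by cluster.

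In cDC2 7 members were measured and Il1a was called lower, 2.38-fold (1.43 to 4.18), against 2.43% of 7009 genes called lower and 2.78% higher. Named by cluster, its log2 ratio was -0.27, which is not called. Il1b was nearly level at -0.08 (-0.13 to -0.04), Il1r2 was at 0.43 (0.29 to 0.57) and Il1rn at -0.49 (-0.86 to -0.12). The 7 collagen-gate markers summed to 90.2 and 15.01 CPM in the cDC2 gate and the 10 neutrophil markers to 16.7 and 40.2, and their part was not tested. In the collagen-rich gate 4 members were measured and Il1r2 was called lower, at 13.1 CPM from 50 UMIs and 2.96 from 7, against 7.04% of 9330 genes called lower and 5.83% higher. Ratios of single genes between libraries were not made for neutrophils, of which UEIS LSL had 25.

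**Figure D4:**
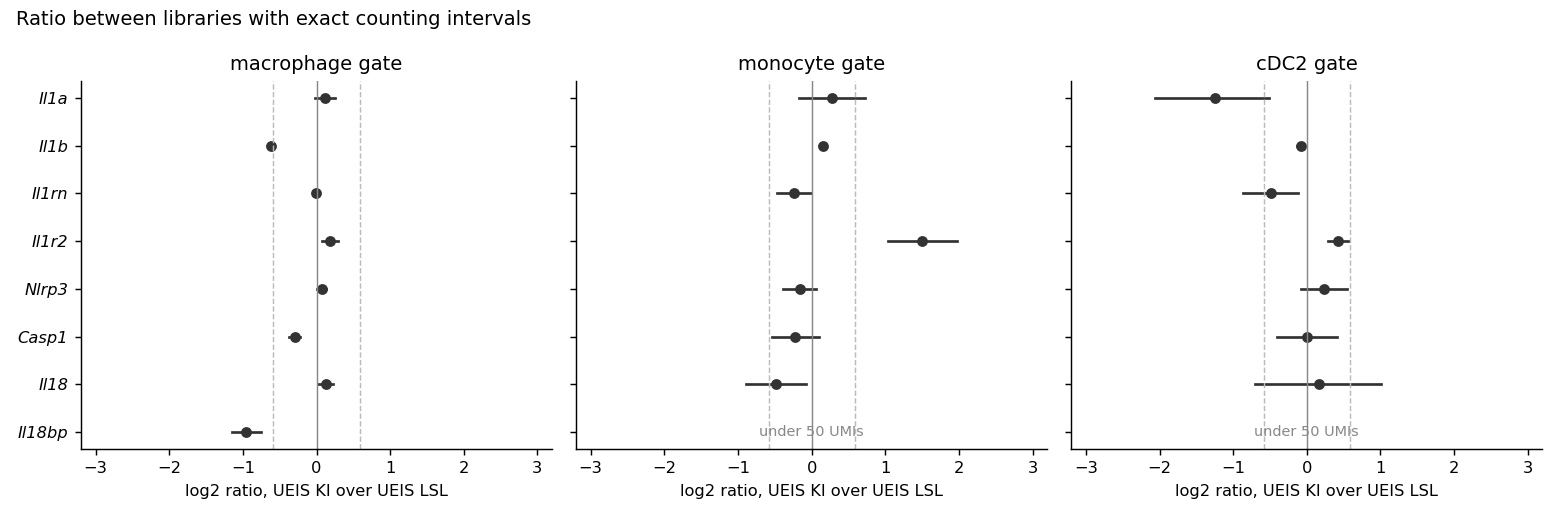
Log2 ratio of each gene's level in UEIS KI over UEIS LSL in the macrophage, monocyte and cDC2 gates. Points are ratios, lines exact 95% counting intervals and dashed lines mark 1.5-fold. Beyond the dashed lines with an interval clear of 0 lie Il1b and Il18bp in macrophages, Il1r2 in monocytes and Il1a in cDC2.

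The wider pathway was followed with a list of 53 other genes of interleukin 1 family signalling, inflammasomes and NF-kB control. In macrophages 44 were measured, 0 were called higher and 4 lower, beside 4.74% and 5.38% of all genes measured, with a median log2 ratio of -0.05 beside 0.03 over all genes. The count of 4 was 2 with at least 200 UMIs, 1 with the same mix of clusters and 0 at 2-fold. The 4 were inflammasome sensors and a receptor at low levels. Mefv, which encodes the sensor pyrin, went from 14.2 to 8.14 CPM (log2 -0.80, -0.96 to -0.65). Il1rl1, the interleukin 33 receptor, had 2.32 and 1.45 CPM. Nlrp1b had 1.58 and 1.05 and Nlrp1a 0.958 and 0.579, and these are similar paralogs whose counts may be shared. In monocytes 33 genes of the list were measured, 0 called higher and 3 lower, beside 6.67% and 4.78% of all genes. In cDC2 33 were measured, 0 called higher and 2 lower, beside 2.78% and 2.43%.

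The pathway genes of highest level differed little in macrophages, and none was called there. Zfp36, which speeds the decay of cytokine RNA, had 785 and 793 CPM, and Nfkbia, the NF-kB inhibitor, 655 and 630. Pycard, the adaptor that joins NLRP3 to caspase 1, had 287 and 286 CPM, well above either partner. Ninj1, which ruptures the membrane of dying cells, had 331 and 391 (log2 0.24). In monocytes Ninj1 went the other way and was called lower, at 458 and 284 CPM (log2 -0.69, -0.82 to -0.57). In macrophages Txnip had 244 and 203 (log2 -0.27), and Nfkbiz 187 and 176. Gsdmd, the pore protein, had 67.8 and 63.2, and was named for its role after its values were seen.

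**Figure D5:**
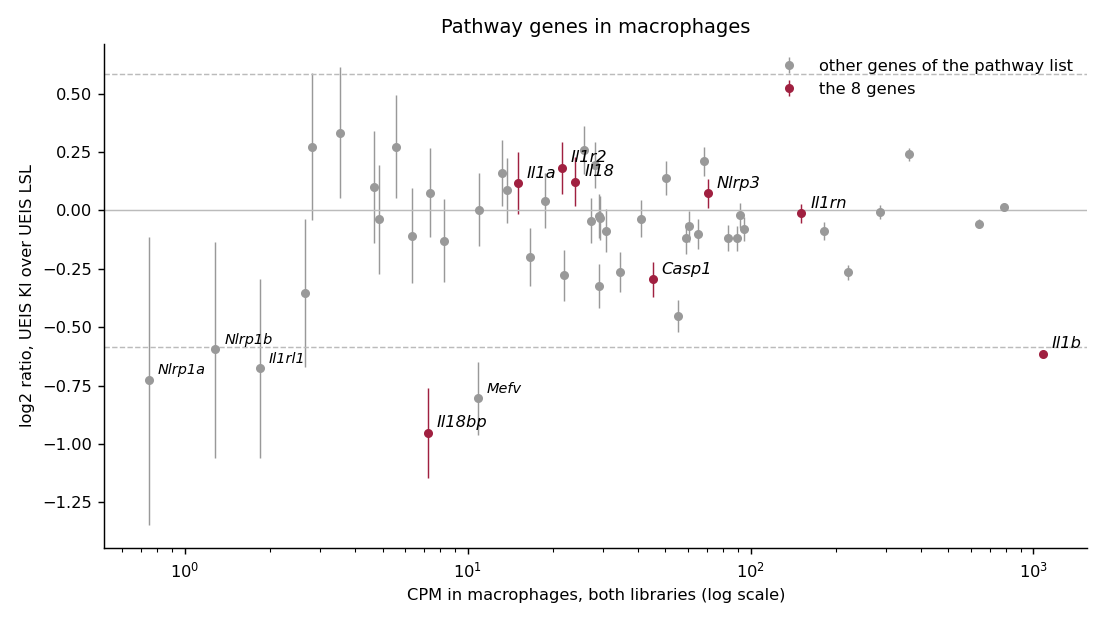
Log2 ratio in UEIS KI over UEIS LSL (vertical) against level in macrophages of both libraries (CPM, log scale) for the 8 genes in red and the 44 measured genes of the pathway list in grey, with exact 95% counting intervals. Dashed lines mark 1.5-fold. Il1b has the highest level and Il18bp the lowest ratio of the 8, and most other points lie between the dashed lines.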

How the data were processed

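The authors deposited 1 matrix of whole-number UMI counts per library, with 55357 genes, made with Cell Ranger (version 2.1.1 per the submitters' processing notes, 8.0.1 per the file headers) on mm10. The annotation release and the use of strand are not given in the sources used here. Gene positions are from GENCODE vM21, which holds 94.1% of the identifiers.

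Cells had at least 500 UMIs and 200 genes and at most 10% mitochondrial UMIs. The barcodes with the highest Scrublet scores, 0.8% per 1000 barcodes, were removed (726 and 758). The libraries were clustered with scanpy 1.11.5 (2000 variable genes without the members, 30 components, 15 neighbours, Leiden resolution 1). A gate needed a number of distinct markers and of marker UMIs, 6 of 12 and 10 for macrophages, 4 of 8 and 6 with Ly6c2 or Plac8 for monocytes, 3 of 6 and 5 for cDC2, 4 of 10 and 10 for neutrophils, 3 of 7 and 4 for T cells and 5 of 7 and 20 for the collagen-rich gate. These limits were set after marker counts were seen, and 602 macrophages lay at the limit with 809 cells 1 marker below. Gates other than macrophages had to hold under 20 C1q UMIs per 10000, cells with more (451 and 292) or of several sets (67 and 35) were set apart as mixed, and 801 and 648 cells were unassigned.

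Counts were summed per gate and library and scaled to the gate total. Ratios have exact conditional binomial 95% intervals, changes of the ratio of 2 genes have Woolf intervals, and 3 counts stood in for a count of 0. All intervals cover counting error only. Ratios of single genes between libraries were made in the 5 gates with at least 50 cells in each. The ratio and interval code was tested on simulated data. The named genes were all members, the pathway genes called in macrophages, the 6 of highest level and the genes most like Il1b, Il1rn, Il18 and Casp1 (at least 50 CPM, clusters of at least 30 cells in each library). The members and lists were chosen with earlier results of these data known. Alternatives changed the quality limits, doublets, gates, scaling, depth, cluster mix and minimum count. Il1b, Il1a, Il1r2, Il18 and Il18bp overlap genes on the other strand.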

Additional observations from a re-analysis of the deposited data

Results flagged for a closer look

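3 members had a counting interval above 0 in 1 gate and below 0 in another for the log2 ratio of UEIS KI over UEIS LSL. The difference between gates was not tested, since each group holds 1 library. Il1b was at -0.61 in macrophages and -0.0837 in cDC2, against 0.16 in monocytes and 0.34 in T cells, where few cells held most of it. The Il1b directions in monocytes and cDC2 did not hold under every setting. With cells named by cluster, monocytes were at -0.04 (-0.07 to -0.004). Thinned to 1000 UMIs, cDC2 were at 0.01 (-0.13 to 0.15). Il1r2 was at 0.18 in macrophages, 1.49 in monocytes, 0.43 in cDC2 and 0.75 in T cells, against -2.14 in the collagen-rich gate, from 50 and 7 UMIs. That gate holds 99 and 83 cells of a cluster that took no name and 91 and 30 of a fibroblast-like cluster. Il18 was at 0.12 in macrophages and -0.48 in monocytes.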

How the results depend on the processing

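No paired analysis was possible because each group holds 1 library. There were 283 values under other settings. Of these, 206 stayed within the counting interval of the reported value or within 1.5 times a count, and 77 moved outside it. Among called values 0 changed sign, but some uncalled ones did, such as Il1b in monocytes and cDC2. A 20% mitochondrial limit and a minimum of 500 genes left the monocyte and cDC2 ratios unchanged and barely moved those of macrophages. For the macrophage log2 ratio of Il1b, only those 2 of 10 alternatives stayed within the interval, and 8 moved. The macrophage log2 ratio of Il1b was -0.64 with doublets kept, -0.65 with cells named by cluster, -0.66 with a stricter gate, -0.64 with median-ratio scaling, -0.69 without clusters 2 and 9, -0.50 with every cell counted alike, -0.49 thinned to 1000 UMIs and -0.25 with the same mix of clusters. The change of Il1b per Il1rn in macrophages was -0.67 without clusters 2 and 9, -0.42 with every cell counted alike, -0.42 thinned and -0.25 with the same mix, and that of Il1b per Il1r2 was -0.68 thinned and -0.61 with the same mix. Genes higher in macrophages numbered 642, and 406 with at least 200 UMIs and 242 at 2-fold. Genes lower numbered 729, and 373 with at least 200 UMIs, 353 at 2-fold and 384 with the same mix. Pathway genes lower numbered 4, and 2 with at least 200 UMIs, 0 at 2-fold, 1 with the same mix and 2 with doublets kept, which also gave 1 higher. Of the 5 genes most like Il1b, 2 were among the first 5 in UEIS KI alone. Depth limits the values that rest on few UMIs, such as Il18bp outside macrophages and the neutrophils of UEIS LSL.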

Other observations

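The signalling receptors of interleukin 1 and interleukin 18 were low in macrophages. They are named here after their values were seen. Il1r1, the signalling receptor of interleukin 1, was at 59.9 and 35.6 CPM in the collagen-rich gate and at 0.284 and 0.438 in macrophages. Il18r1, the receptor of interleukin 18, was at 88.6 and 116 CPM in T cells and at 0.142 and 0.198 in macrophages. Il1rap, the shared accessory chain, was at 7.13 and 7.51 CPM in macrophages and 10.7 and 16.1 in monocytes, and at 24.7 and 91.1 in neutrophils, from 2 and 29 UMIs. Il18rap, the second chain of the interleukin 18 receptor, was at 34.1 and 39.0 CPM in cDC2 and 42.0 and 41.2 in T cells. In the 21 and 16 NK cells Il18rap was at 109 and 99.6, from 10 and 7 UMIs. Neutrophils had 24.7 and 72.3, from 2 and 23 UMIs, beside 4.93 and 4.803 in macrophages.

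In the collagen-rich gate 34 genes of the pathway list were measured, 4 called higher and 8 lower in UEIS KI, against 5.83% and 7.04% of all genes measured there. Il33, an alarm cytokine of stromal cells, went from 156 to 91.9 CPM, and Il1rl1, its receptor, from 6.80 to 59.3. Ptprc, the CD45 gene, was detected in 11.6% and 8.85% of the cells of this gate, and its unnamed cluster gave 99 and 83 cells and its fibroblast-like cluster 91 and 30. The part of that mix in these values was not tested.

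Cells outside the gates carried the members too. Il1b was at 950.0 and 1094 CPM in unassigned cells and at 1782 and 1597 in cells with markers of another set and macrophage RNA.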
